A study of Homo sapiens with 6 samples.

Results

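The genes described here are 42 genes of mitosis, the spindle and the kinetochore, measured in KYSE30, an established cell line from a human squamous carcinoma of the oesophagus. They were taken by symbol from the deposited array table, in which all 42 were present, as 81 of 34558 array rows and as 42 of 19148 genes once the log2 values of rows with the same symbol were averaged. The series holds 3 samples labelled MTA2 siRNA (samples 4, 5 and 6) and 3 labelled control siRNA (samples 1, 2 and 3), all transfected with Lipofectamine 2000 for 48 h, with 20 nmol/ml printed as the dose. The aim, per the series title, was to see which transcripts change when MTA2, part of the NuRD complex that remodels chromatin and deacetylates histones, is knocked down. Each group received 1 siRNA duplex. Their antisense strands are shown because they define the groups, with bases 2 to 8 (the seed) in capitals and the overhang at the end:
MTA2 siRNA antisense: aUAGACGUaaucucccacctt
control siRNA antisense: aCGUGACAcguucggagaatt

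The sense strand against MTA2 was ggugggagauuacgucuautt. MTA2 lies on chromosome 11, and the labels give no target for the control duplex. Only 1 cell line and 1 duplex per group were used, and the labels do not say whether samples within a group were separate cultures. The p-values are therefore set against a spread that may be technical.

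Values are log2 intensities. The medians of the 6 samples lay between 10.44 and 10.45, and having only 3 samples per group limits precision. MTA2 itself went against its label. Its only row read 13.12, 13.18 and 13.52 in the samples labelled MTA2 siRNA, against 12.92, 13.13 and 13.00 in the samples labelled control siRNA (difference 0.26, SE 0.17, limma adjusted p = 0.943). Directions below are thus those of the labels, not of a measured loss of MTA2 transcript. The label field names the dye Cy5 for samples 4 and 6 (MTA2 siRNA) and 2 (control siRNA), and Cy3 for samples 5 (MTA2 siRNA) and 1 and 3 (control siRNA). Dye is treated as a batch, but it is not a term in the main fit. Differences, intervals and p-values for siRNA are therefore without dye unless a block for dye or a single dye is named. The groups hold the dyes unequally, so part of any dye difference enters the main siRNA differences. Intensity did not separate the markers of other cell types from squamous ones, so the cell type could not be checked. The mean levels per sample of 5 squamous epithelial markers were 11.74 to 11.91 in the samples labelled MTA2 siRNA and 11.83 to 11.93 in the controls. Those of 4 leukocyte markers were 10.74 to 11.08 in the samples labelled MTA2 siRNA and 10.99 to 11.07 in the controls. For 4 endothelial markers they were 12.63 to 12.65 in the samples labelled MTA2 siRNA and 12.45 to 12.76 in the controls. For 4 fibroblast markers they were 11.55 to 11.75 in the samples labelled MTA2 siRNA and 11.49 to 11.94 in the controls, and 0 of these 17 markers averaged under 5.

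Cells enter mitosis when cyclin B bound to CDK1 is switched on by CDC25 phosphatases. PLK1 and the Aurora kinases then build the spindle, kinesin motors move chromosomes along microtubules, and kinetochores attach chromosomes to them. The spindle checkpoint holds back the anaphase-promoting complex until all chromosomes are attached. In dividing cells most of these genes are transcribed late in the cycle, from promoters bound by the DREAM and MuvB complexes, which bind a CHR element, and by NF-Y, which binds CCAAT boxes. Transcript levels of the set are for this reason widely used as a readout of proliferation.

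No mitosis gene passed the test between the siRNA groups once p-values were adjusted over all genes. By limma's test with Benjamini-Hochberg adjustment over all genes, 0 of 42 members passed an adjusted p of 0.05 (all genes, 0%), with adjusted p-values between 0.943 and 0.998. Because no gene of the array passed, the 0 calls for siRNA given below for each class or list do not set it apart. The members were nearly balanced, with 23 higher and 19 lower in the samples labelled MTA2 siRNA (54.8% higher, against 54.5% of all genes). Their median difference was 0.041 on the log2 scale, and that of all genes was 0.029. With dye as a block the median of the members was -0.027, so it carries no direction. Without adjustment, 0 members were higher at a limma p under 0.05 (all genes, 1.76%) and 1 was lower, MAD2L1 (2.38% of members; all genes, 1.99%). In bulk RNA, a smaller share of cells in G2 and mitosis and less of a transcript per cell cannot be told apart.

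The intervals say how large a change in log2 intensity these samples leave room for. They need not bound the change in transcript, since intensity did not separate markers of other cell types from squamous ones. The 95% interval of the difference lay within 2-fold in either direction for 37 of 42 members (88.1%, against 78.9% of all genes), and within 1.5-fold for 16. The 5 members whose interval reached beyond 2-fold were MAD2L1, ECT2, SPC24, SPC25 and KIF18A, and the farthest ends were -1.77 for SPC25 and 1.14 for SPC24. The median SE was 0.20 over the members and 0.22 over all genes. Only 2 members, SPC25 and MAD2L1, had a difference of over 1.5-fold (4.76%, against 6.55% of all genes).

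**Figure D1:**
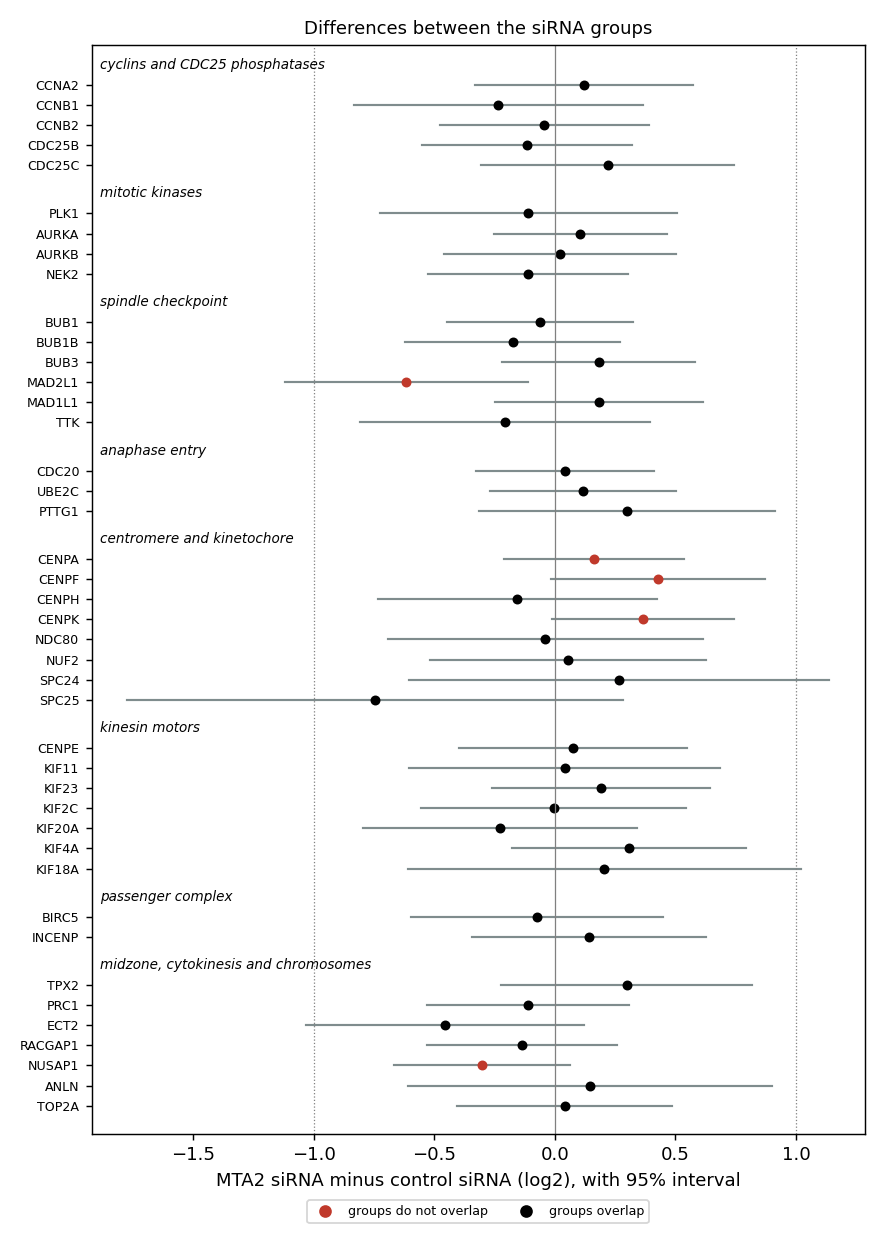
Difference between samples labelled MTA2 siRNA and control siRNA (log2, x axis) for each of the 42 mitosis genes by class, with limma's 95% interval as a line; dotted lines mark a 2-fold change and red points the 5 genes whose groups did not overlap. Points run from -0.74 (SPC25) to 0.43 (CENPF), and most intervals cross 0.

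In 5 members the groups did not overlap. CENPA, CENPF and CENPK were higher in all 3 samples labelled MTA2 siRNA (3 of 42 members; all genes, 5.43%), and MAD2L1 and NUSAP1 were lower (2 of 42; all genes, 4%). These counts are near the background of the array. For each of them p was 0.10 in a two-sided exact permutation test, the smallest that 3 samples against 3 can give.

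MAD2L1 encodes the checkpoint protein that, once at unattached kinetochores, inhibits CDC20. Its single row read 9.63, 9.38 and 9.43 in the samples labelled MTA2 siRNA, against 9.98, 10.49 and 9.82 in the controls. The highest value was that of the Cy5 control, and the lowest control still lay above sample 4. The difference was -0.61 (SE 0.21, interval -1.12 to -0.11), or 0.653 times the control level. It was -0.42 without control sample 2, -0.74 with dye as a block, -0.96 within Cy5 and -0.51 within Cy3.

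CENPF, a large protein of the outer kinetochore that peaks in G2 and mitosis, read 10.38, 10.09 and 10.16 in the samples labelled MTA2 siRNA and 9.73, 9.56 and 10.05 in the controls. The gap between the groups was narrow, since sample 5 lay just above control sample 3. The difference was 0.43 (SE 0.19, interval -0.016 to 0.87), with 0.70 within Cy5 and 0.20 within Cy3.

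CENPK belongs to the constitutive centromere-associated network, the inner kinetochore layer that sits on centromeric chromatin. The mean of its 2 rows was 10.50, 10.21 and 10.37 in the samples labelled MTA2 siRNA, against 10.12, 9.94 and 9.92 in the controls (difference 0.37, SE 0.16, interval -0.013 to 0.74). All 3 of the first lay above all 3 of the second, but the brighter row differed by 0.19 and the other by 0.54.

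CENPA, the histone H3 variant that marks the centromere, read 9.95, 9.87 and 9.91 in the samples labelled MTA2 siRNA and 9.55, 9.86 and 9.84 in the controls. Here 2 controls lay directly under the lowest of the other group. The difference was 0.16 (SE 0.16, interval -0.21 to 0.54). Its 2 rows did not share a sign, at -0.028 in the brighter row and 0.35 in the other.

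NUSAP1 encodes a microtubule-bundling protein of the spindle. The mean of its 5 rows was 10.02, 10.21 and 10.23 in the samples labelled MTA2 siRNA and 10.55, 10.34 and 10.47 in the controls, a difference of -0.30 (SE 0.15, interval -0.67 to 0.065). Of its rows 4 were lower, by -0.093 to -0.73, and 1 was higher by 0.12.

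The promoter windows of these 5 genes are shown because late cell cycle genes share such elements, which the choice of members did not use. RefSeq windows (GRCh38.p14, 250 bases before to 50 after an annotated start) were searched on both strands for the CHR element (TTTGAA or TTCGAA) and for CCAAT. These motifs do not overlap in the windows shown. Capitals mark the matches, and a match on the other strand appears as its complement, so ATTGG is a CCAAT box read in reverse. Windows run 5′ to 3′ on the gene's own strand:
MAD2L1 (chr4:120066799-120067098, minus strand): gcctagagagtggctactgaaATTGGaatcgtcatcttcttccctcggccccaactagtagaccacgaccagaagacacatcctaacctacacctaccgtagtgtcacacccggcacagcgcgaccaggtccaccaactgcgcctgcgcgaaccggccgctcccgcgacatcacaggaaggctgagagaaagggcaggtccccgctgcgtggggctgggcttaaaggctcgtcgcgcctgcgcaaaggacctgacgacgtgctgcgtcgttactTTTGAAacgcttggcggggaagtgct
CENPF (chr1:214602945-214603244, plus strand): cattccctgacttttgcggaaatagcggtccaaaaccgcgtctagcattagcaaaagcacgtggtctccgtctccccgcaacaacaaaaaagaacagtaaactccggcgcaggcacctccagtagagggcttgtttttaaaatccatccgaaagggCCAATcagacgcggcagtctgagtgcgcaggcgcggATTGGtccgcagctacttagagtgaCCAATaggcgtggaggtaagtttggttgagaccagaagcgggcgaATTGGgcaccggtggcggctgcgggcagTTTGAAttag
CENPK (chr5:65563119-65563418, minus strand): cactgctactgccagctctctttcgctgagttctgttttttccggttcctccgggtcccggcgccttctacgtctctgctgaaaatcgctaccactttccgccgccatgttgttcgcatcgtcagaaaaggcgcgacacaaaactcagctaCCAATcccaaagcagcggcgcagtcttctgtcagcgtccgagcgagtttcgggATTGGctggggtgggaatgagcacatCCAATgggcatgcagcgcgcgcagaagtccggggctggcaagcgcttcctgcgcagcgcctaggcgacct
CENPA (chr2:26785806-26786105, plus strand): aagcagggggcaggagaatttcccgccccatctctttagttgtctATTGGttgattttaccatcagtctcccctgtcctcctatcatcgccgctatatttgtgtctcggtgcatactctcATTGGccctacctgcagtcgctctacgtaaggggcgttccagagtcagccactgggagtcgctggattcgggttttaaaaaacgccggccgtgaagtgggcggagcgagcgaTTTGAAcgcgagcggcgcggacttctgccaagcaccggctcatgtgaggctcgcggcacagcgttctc
NUSAP1 (chr15:41332631-41332930, plus strand): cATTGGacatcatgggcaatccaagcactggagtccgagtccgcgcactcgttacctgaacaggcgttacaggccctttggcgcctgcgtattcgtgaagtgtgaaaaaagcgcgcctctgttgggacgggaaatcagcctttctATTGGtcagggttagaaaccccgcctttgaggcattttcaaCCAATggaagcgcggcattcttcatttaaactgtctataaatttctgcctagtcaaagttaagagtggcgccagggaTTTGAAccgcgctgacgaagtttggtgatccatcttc

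Windows were found for 34 of the 42 members, 43 windows in all. A CHR match lay in 25 of the 43 (58.1%), against 16.4% of all 35116 windows in the table. A CCAAT match lay in 31 (72.1%, against 34.6%), more than 1 CCAAT in 18 (41.9%, against 10.8%), and both elements in 20 (46.5%, against 6.38%). Some genes had several windows. Counted per gene over any window, CHR lay in 23 of 34 members (67.6%, against 19.5% of all 27305 genes). For CCAAT it was 27 of 34 (79.4%, against 39.7%). The background was not matched to the members by type of gene. Of the 5 windows shown, CENPF had 4 CCAAT matches, CENPK and NUSAP1 3 each, CENPA 2 and MAD2L1 1, the last with its leftmost base at -229. In MAD2L1, CENPF and NUSAP1 the CHR match began after the annotated start, at 25, 41 and 14. The CENPA match began at -18, and no CHR match lay in the CENPK window. Genes that read higher and genes that read lower thus both held these letters. A match is only a run of letters, and binding was not measured.

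The cyclins and CDC25 phosphatases, which drive entry into mitosis, gave 0 calls among 5 genes, 2 higher and 3 lower. CCNB1, the cyclin that activates CDK1, read 9.35, 9.58 and 10.24 in the samples labelled MTA2 siRNA, against 9.78, 10.10 and 9.98 in the controls. Sample 6 was the highest of all 6 and sample 4 the lowest, so the groups overlapped throughout (difference -0.23, SE 0.25). Without sample 4 the difference was -0.047, and without sample 6 it was -0.49. CDC25C, a phosphatase that removes the inhibitory phosphates from CDK1, read 10.50, 10.10 and 10.44 in the samples labelled MTA2 siRNA and 10.21, 10.41 and 9.76 in the controls (difference 0.22, SE 0.22). Its lowest value was that of control sample 3, without which the difference was 0.034. CCNA2, the cyclin of S phase and early mitosis, differed by 0.12, CCNB2 by -0.043 and CDC25B by -0.12.

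Among the mitotic kinases 0 of 4 were called, 2 being higher and 2 lower. None differed by more than 0.12 in size once its rows were averaged, but single rows differed by more. PLK1, which drives centrosome maturation and mitotic entry, read 14.82, 15.28 and 14.51 in the samples labelled MTA2 siRNA and 15.20, 14.61 and 15.14 in the controls (difference -0.11, SE 0.26). These values sorted by dye: the 3 Cy5 samples (4, 6 and 2) were all lower than the 3 Cy3 samples. AURKA, the kinase of spindle poles, averaged over 6 rows, read 11.27, 11.46 and 11.48 in the samples labelled MTA2 siRNA and 11.22, 11.37 and 11.30 in the controls (difference 0.11, SE 0.15). Its interval was -0.25 to 0.46, and its rows differed by -0.14 to 0.26. AURKB, the kinase of the chromosomal passenger complex, read 9.62, 10.20 and 9.71 in the samples labelled MTA2 siRNA and 9.89, 9.66 and 9.91 in the controls (difference 0.023, SE 0.20), again lower in Cy5. This is the mean of 2 rows of opposite sign, 0.21 in the brighter and -0.16 in the other. NEK2, a centrosomal kinase, read 9.65, 9.94 and 10.08 in the samples labelled MTA2 siRNA against 9.92, 10.12 and 9.96 in the controls (difference -0.11, SE 0.18). This is the mean of 3 rows, which differed by -0.51 in the brightest and by -0.039 and 0.22 in the others.

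Of the 6 spindle checkpoint genes 0 were called and 4 were lower, with a median difference of -0.12. Apart from MAD2L1, described above, the difference with the smallest p was that of BUB3, which helps bring BUB1 and BUBR1 to kinetochores. It read 10.78, 10.44 and 10.84 in the samples labelled MTA2 siRNA and 10.56, 10.47 and 10.48 in the controls (difference 0.18, SE 0.17). Sample 5, the Cy3 sample, was the lowest of all. BUB1, the kinase that binds the kinetochore scaffold, read 8.60, 8.41 and 8.63 in the samples labelled MTA2 siRNA and 8.73, 8.67 and 8.43 in the controls (difference -0.062, SE 0.16). BUB1B, which encodes BUBR1, differed by -0.17, MAD1L1, the partner that brings MAD2 to kinetochores, by 0.18, and TTK, the kinase that starts the checkpoint signal, by -0.21. TTK moved most with dye in this class. Its difference was -0.39 with dye as a block, and 0.023 without sample 5. The direct partner of MAD2L1 and the other checkpoint genes therefore gave differences of both signs.

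The genes of anaphase entry were 3 higher and 0 lower, with 0 calls. PTTG1, securin, which holds separase inactive until anaphase, read 10.43, 10.60 and 11.34 in the samples labelled MTA2 siRNA, against 10.43, 10.38 and 10.65 in the controls (difference 0.30, SE 0.26). Sample 6 alone stood above the controls, and without it the difference was 0.025. UBE2C, the ubiquitin-conjugating enzyme of the anaphase-promoting complex, averaged over 6 rows, read 11.51, 11.47 and 11.75 in the samples labelled MTA2 siRNA and 11.40, 11.61 and 11.38 in the controls (difference 0.12, SE 0.16). CDC20, the activator of that complex and the target of MAD2, differed by 0.042, with an interval of -0.33 to 0.41.

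Centromere and kinetochore genes gave 0 calls among 8, with 5 higher and 3 lower. The NDC80 complex, which grips microtubules, has 4 subunits, all of them members here, and they did not share a direction. NDC80 read 10.68, 10.21 and 10.91 in the samples labelled MTA2 siRNA and 10.44, 11.12 and 10.37 in the controls (difference -0.040, SE 0.28). NUF2, its direct partner, differed by 0.056 (SE 0.24). SPC25, given here because its difference proved the most negative of the members, read 10.98, 10.41 and 9.25 in the samples labelled MTA2 siRNA and 11.07, 11.22 and 10.58 in the controls. Sample 6 stood well under the others (difference -0.74, SE 0.44, interval -1.77 to 0.28), and without it the difference was -0.26. SPC24, which pairs with SPC25, read 7.93, 8.11 and 7.66 in the samples labelled MTA2 siRNA and 8.06, 6.77 and 8.08 in the controls. Its difference of 0.27 (SE 0.37) became -0.17 without control sample 2. CENPH, another protein of the inner kinetochore, differed by -0.16, opposite in sign to CENPK.

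The 7 kinesin motors gave 0 calls, with 5 higher and 2 lower and a median difference of 0.075. KIF4A, a chromokinesin that also acts at the spindle midzone, read 11.25, 10.91 and 11.32 in the samples labelled MTA2 siRNA and 10.81, 11.14 and 10.61 in the controls (difference 0.31, SE 0.21). It was 0.17 with dye as a block. KIF23, the motor of centralspindlin, read 9.83, 9.57 and 9.94 in the samples labelled MTA2 siRNA and 9.45, 9.86 and 9.46 in the controls (difference 0.19, SE 0.19; 0.070 with dye as a block). KIF11, also called Eg5, which pushes spindle poles apart, read 10.06, 9.27 and 9.84 in the samples labelled MTA2 siRNA, against 9.29, 9.97 and 9.79 in the controls (difference 0.041, SE 0.27). CENPE, a kinetochore motor, differed by 0.075, KIF18A, which damps chromosome movements, by 0.20, KIF2C, a microtubule depolymerase, by -0.0041, and KIF20A, a motor of cytokinesis, by -0.23. With dye as a block 3 of the 7 motors were higher and the median was -0.056, so the class carries no direction.

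The passenger complex partners of AURKB gave 0 calls. INCENP, the scaffold, read 12.35, 12.01 and 12.42 in the samples labelled MTA2 siRNA and 12.08, 12.41 and 11.87 in the controls (difference 0.14, SE 0.21), and the value was 0.0062 with dye as a block. BIRC5, survivin, read 8.62, 9.33 and 8.92 in the samples labelled MTA2 siRNA and 8.88, 9.21 and 9.00 in the controls (difference -0.072, SE 0.22). Its differences were of opposite sign within the dyes, -0.44 within Cy5 and 0.39 within Cy3.

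Genes of the spindle midzone, cytokinesis and chromosome structure gave 0 calls among 7, with 3 higher and 4 lower. ECT2, the exchange factor that activates RhoA for cleavage, read 12.47, 11.84 and 12.13 in the samples labelled MTA2 siRNA and 12.31, 12.97 and 12.52 in the controls (difference -0.45, SE 0.24, interval -1.03 to 0.12). Sample 4 lay above control sample 1, so the groups overlapped. All 3 ECT2 rows were lower, by -0.27, -0.43 and -0.66, and the difference was -0.62 (SE 0.16) with dye as a block, -0.67 within Cy5 and -0.58 within Cy3. TOP2A, the topoisomerase that untangles sister chromatids, read 14.17, 13.92 and 14.34 in the samples labelled MTA2 siRNA and 14.07, 14.33 and 13.91 in the controls (difference 0.040, SE 0.19). TPX2, which activates AURKA on the spindle, differed by 0.30. RACGAP1, the partner of KIF23 in centralspindlin, differed by -0.14, PRC1, which bundles midzone microtubules, by -0.11, and ANLN, a scaffold of the contractile ring, by 0.15. For ANLN the value was 0.53 within Cy5 and -0.51 within Cy3.

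**Figure D2:**
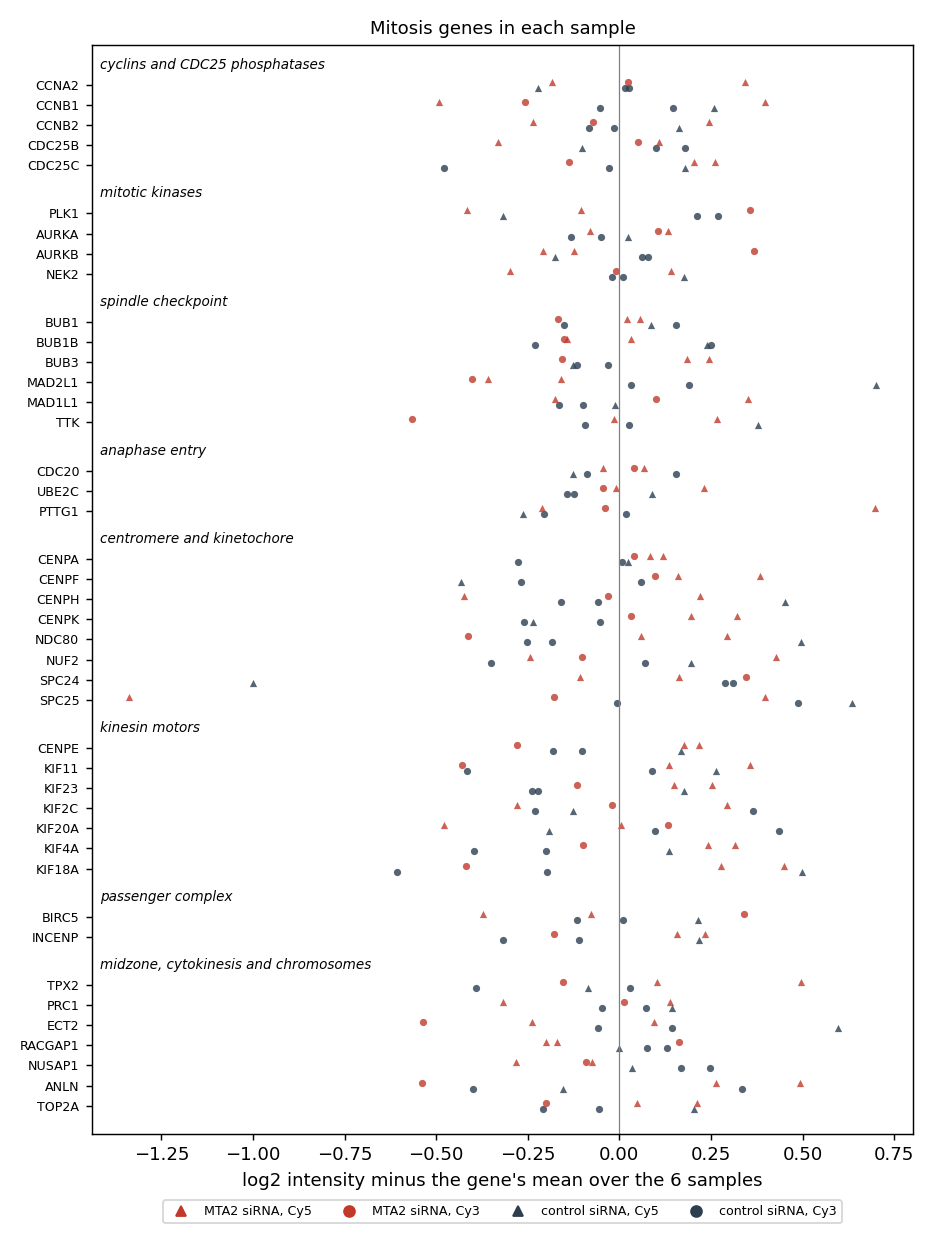
Log2 intensity of each mitosis gene in each of the 6 samples, minus that gene's mean over the 6 (x axis). Red marks samples labelled MTA2 siRNA and dark points control siRNA, triangles Cy5 and circles Cy3; most motors show triangles on the right and circles on the left, while the colours mix.

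The larger split among these genes was by the dye named in the label field. In a limma fit with both siRNA and dye as terms, 0 of 42 members passed an adjusted p of 0.05 for dye (all genes, 0.345%). Without adjustment, 9 members were higher in Cy5 at a p under 0.05 (21.4% of members; all genes, 9.29%) and 3 were lower (7.14%; all genes, 8.64%). The dyes did not overlap in 10 members that were higher in Cy5 (all genes, 15.8%) and in 5 that were lower (all genes, 11.8%). The median member differed by 0.14 between Cy5 and Cy3 and the median gene by 0.026. The dye difference had a median size of 0.22 over the members, against 0.15 for the siRNA difference, and over all genes these were 0.25 and 0.17. The dye sizes are from the fit with both terms and the siRNA sizes from the fit with siRNA alone, so they are not from the same model.

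Kinesin motors held 5 of the 9, namely KIF18A, KIF11, KIF4A, CENPE and KIF23. The other motors read lower in Cy5, though not at an unadjusted p under 0.05. KIF20A differed by -0.41 (SE 0.20), with dyes that did not overlap, and KIF2C by -0.082 (SE 0.25). KIF18A, given because its dye difference had the smallest p, read 9.13, 8.96 and 9.18 in Cy5 samples 4, 6 and 2, against 8.26, 8.07 and 8.48 in Cy3 samples 5, 1 and 3. That is 0.84 higher in Cy5 (SE 0.17, limma adjusted p = 0.135). NDC80 was 0.65 higher (SE 0.14, limma adjusted p = 0.147) and TTK 0.55 higher (SE 0.16). The rest of the 9 were ECT2, 0.51 higher (SE 0.16), and INCENP, 0.40 higher (SE 0.14). The members that were lower at that threshold were SPC24, by -0.81 (SE 0.25), PLK1, by -0.59 (SE 0.15, limma adjusted p = 0.173), and AURKB, by -0.39 (SE 0.14). Within the NDC80 complex, therefore, NDC80 and SPC24 read in opposite directions by dye. The labels' protocols name a one-colour labelling kit, yet the label field holds both Cy3 and Cy5. What the field stands for is not given in the sources used here. The fluorophore and any other difference between these sets of samples therefore cannot be told apart.

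**Figure D3:**
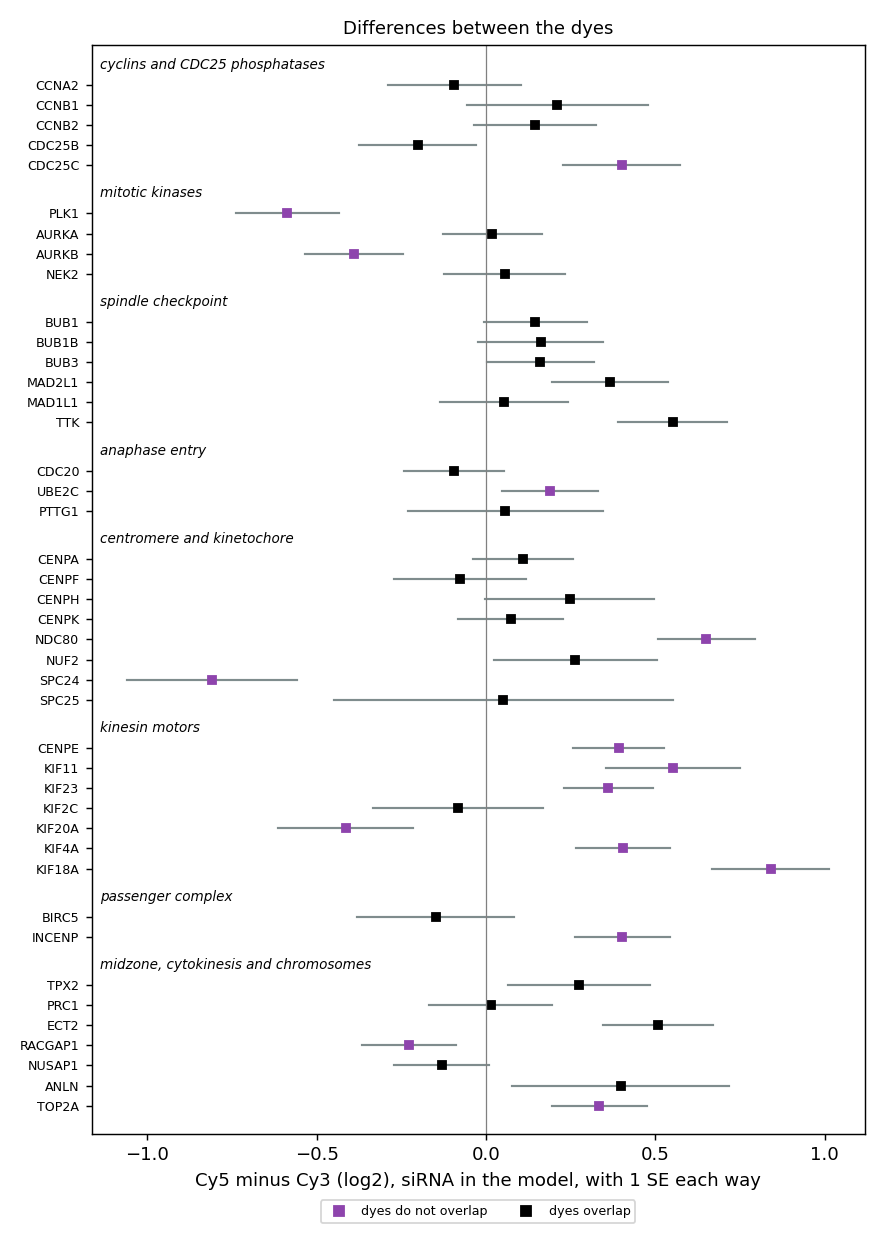
Difference between Cy5 and Cy3 samples (log2, x axis) for each mitosis gene, from the fit with siRNA in the model, with 1 SE on either side; purple squares mark the genes whose dyes did not overlap. KIF18A (0.84) and NDC80 (0.65) lie farthest to the right, and SPC24 (-0.81) and PLK1 (-0.59) farthest to the left.

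The siRNA difference could be read separately within each dye, from different samples. Within Cy5 it sets samples 4 and 6 against control sample 2, and within Cy3 sample 5 against control samples 1 and 3. The difference had the same sign in both dyes for 32 of 42 members (76.2%), against 54.7% of all genes. This share was not tested, genes of 1 sample are not independent, and the sizes were mostly small. Over all members the median was -0.013 within Cy5 and 0.0013 within Cy3. Members lower by more than 0.4 in both were MAD2L1, ECT2 and SPC25 (-1.11 within Cy5 and -0.42 within Cy3), and no member was higher by that much in both. The interaction of siRNA and dye passed an adjusted p of 0.05 in 0 members (all genes, 0%). Without adjustment, 1 of 42 members, SPC24, had a limma p under 0.05 for it, against 799 of 19148 genes.

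**Figure D4:**
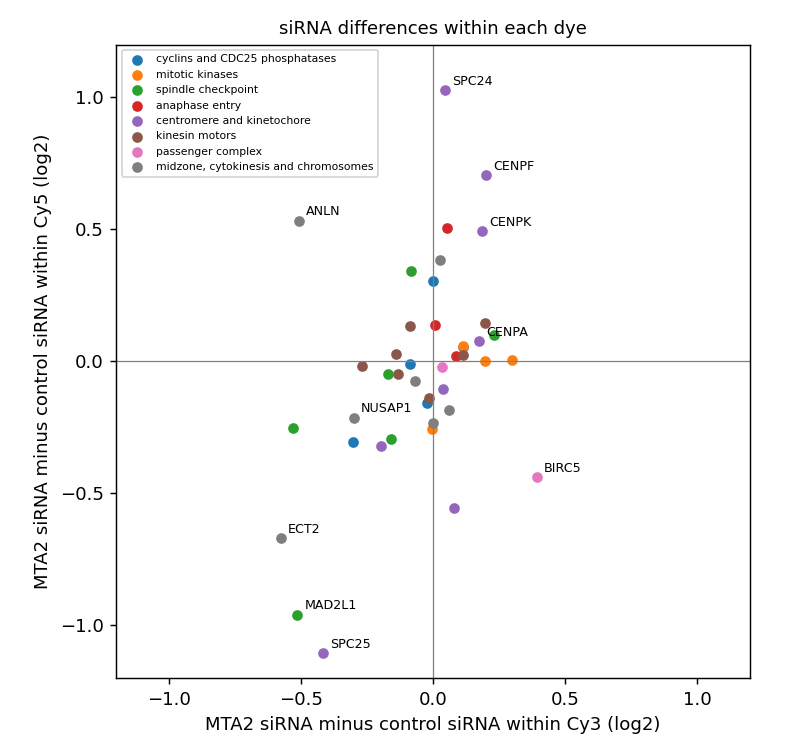
Difference between samples labelled MTA2 siRNA and control siRNA within Cy5 (log2, y axis) against that within Cy3 (log2, x axis), 1 point per mitosis gene coloured by class. MAD2L1, ECT2 and SPC25 lie low on both axes, SPC24 is high within Cy5 alone (1.03), and BIRC5 and ANLN lie in the quadrants of opposite sign.

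The array rows of 1 gene did not always move alike. In the 20 members with more than 1 row (59 rows), the rows shared a sign in 10 and differed in sign in 10. The range of the difference over the rows of a gene had a median of 0.38 and reached 0.85. For NUF2 the brighter row differed by -0.37 and the other by 0.48, and for BIRC5 the 3 rows differed by 0.043, 0.30 and -0.56. The 2 INCENP rows both differed by 0.14. Tested row by row over all 34558 rows, 0 of the 81 member rows passed, with limma adjusted p = 0.967 for the lowest. Without adjustment, 4 member rows had a limma p under 0.05, 1 each of MAD2L1, CENPK, ECT2 and NUSAP1. The share of all 34558 rows at that level was not counted, so these 4 cannot be set against the array background.

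Other genes of the pathway, in 6 lists outside the members, gave 0 calls by limma in each list. Without adjustment, 1.76% of all genes were higher and 1.99% lower at a p under 0.05. At that level 3 of 32 genes of the other centromere and kinetochore list were higher (CENPT, CENPI and DSN1) and 0 lower. Of the anaphase-promoting complex, 1 of 17 was higher (UBE2S) and 1 lower (CDC23), of cohesin and condensin 1 of 18 was higher (SMC1A) and 1 lower (STAG1), and the other 3 lists had 0 such genes. Of 13 regulators of mitotic entry, 10 were higher and 3 lower (median 0.12). With dye as a block 10 were higher, but 11 were within Cy5 and only 5 within Cy3. The sign was the same in both dyes for 5 of the 13 (38.5%, against 54.7% of all genes). The smallest p belonged to WEE1, the kinase that inhibits CDK1, at 9.79, 9.91 and 10.13 in the samples labelled MTA2 siRNA and 9.36, 9.84 and 9.14 in the controls (difference 0.49, SE 0.22). In the anaphase-promoting complex, 9 of 17 genes were higher and 8 lower (median 0.0065). Its subunit CDC23 read 11.81, 11.55 and 11.66 in the samples labelled MTA2 siRNA against 12.02, 12.47 and 12.19 in the controls, without overlap (difference -0.55, SE 0.18, limma adjusted p = 0.943).

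Of 32 other centromere and kinetochore genes, 20 were higher and 12 lower (median 0.050). CENPT, an inner kinetochore protein that recruits the NDC80 complex, read 8.57, 7.99 and 8.42 in the samples labelled MTA2 siRNA and 7.25, 7.64 and 7.14 in the controls. All 3 lay above the controls (difference 0.98, SE 0.22, limma adjusted p = 0.943), and the value was 0.85 within Cy5 and 0.79 within Cy3. Other motors and spindle genes were 10 higher and 10 lower (median 0.043), with the chromokinesin KIF22 at -0.42 (SE 0.18). Cohesin and condensin genes were 6 higher and 12 lower of 18 (median -0.099), with the cohesin subunit SMC1A at 0.66 (SE 0.25). The 15 transcription factors and partners that act on late cell cycle genes were 7 higher and 8 lower (median -0.081), with MYBL2, which joins the MuvB complex, at -0.39 (SE 0.19).

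By dye, 2 genes of these lists did pass an adjusted p of 0.05 (all genes, 0.345%), and they are named because they were called. They were 1 of 13 regulators of mitotic entry and 1 of 32 other centromere and kinetochore genes, and the other lists had 0. HASPIN, the kinase that phosphorylates histone H3 in mitosis, read 7.35, 7.82 and 8.38 in Cy5 samples 4, 6 and 2 and 10.47, 10.24 and 10.67 in Cy3 samples 5, 1 and 3 (-2.48 in Cy5, SE 0.27, limma adjusted p = 0.0421). MIS18A, which helps load CENPA at centromeres, read 5.93, 6.78 and 5.14 in Cy5 and 8.71, 8.05 and 7.79 in Cy3 (-2.57, SE 0.28, limma adjusted p = 0.0421). In both genes the dyes did not overlap, and the siRNA groups did.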

How the data were processed

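RNA of 6 samples was measured on arrays with a one-colour NimbleGen labelling kit and a GenePix scanner, per the labels' protocols. The authors deposited log2 normalised intensities for 34558 rows; how background and scale were corrected is not given in the sources used here. A second deposited table held the same log2 values in all 34558 rows. Rows were named through RefSeq (GRCh38.p14, names only; 33805 by accession, 465 by current symbol, 207 by a unique older symbol, 81 as deposited) and averaged per gene. For the 81 member rows the deposited and updated symbols did not differ. Differences are MTA2 siRNA minus control siRNA from limma 3.58.1 in R 4.3.3 (lmFit, eBayes, two-sided, Benjamini-Hochberg over 19148 genes), with no filter. The siRNA group was the only term of the main fit. Levels are per sample, n = 3 per group. The script was tested on simulated data.

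The members, classes and lists were chosen with earlier results of these data known. Genes given with every sample value are those whose groups do not overlap, the 2 with the smallest p per class and 9 fixed genes; SPC25, SPC24 and KIF18A were added after their values were seen, as were HASPIN and MIS18A, and CENPI, DSN1, UBE2S and STAG1 were named after their p-values were seen. Sequences were from RefSeq tables and the labels. Plots used matplotlib 3.10.9.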

Additional observations from a re-analysis of the deposited data

How the results depend on the processing

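The number of mitosis genes called stayed 0 in every alternative run, for siRNA and for dye: quantile normalisation again, median centring, the second deposited table, only genes above the median level (22 members left), array weights, 1 row per gene (the brightest), all rows singly, a variance trend with robust fitting, Cy3 or Cy5 samples only, a block for dye, an adjusted p of 0.10 and each sample left out, as far as each applied to either contrast. The lowest limma adjusted p of a member was 0.573 for siRNA, and 0.058 for dye. Over all genes, 4 were called in the Cy3 samples only and from 0 to 3 with 1 sample left out (3 without control sample 2, 1 without sample 6, labelled MTA2 siRNA); the cause was not tested. MTA2 stayed higher, by 0.13 to 0.33, with each sample left out. Because differences of the members were small, 25 of 42 changed sign in at least 1 alternative, 21 of them with a sample left out and 7 with dye as a block. Among the 17 that kept 1 sign were MAD2L1 (-0.96 to -0.42), ECT2 (-0.67 to -0.27), NUSAP1 (-0.57 to -0.21), CENPF (0.20 to 0.70) and CENPK (0.19 to 0.49); CENPA was -0.028 in its brightest row. No paired analysis was possible because the sample numbers run from 1 to 6 and are not shared between the groups. No detection call was used here, so rows near background could not be set apart.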
